A study of Homo sapiens with 8 samples.

Results

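Broad sites are places where several IGF2BP1 peaks lay directly against each other on the same strand. In each deposited list of peaks, same-strand peaks that touched were joined, and a joined site was called broad when it was made of at least 4 peaks. By this rule 434 of 16870 joined sites were broad with DMSO (2.57%) and 506 of 16098 with AVJ16 (3.14%). They held 2095 of 22311 DMSO peaks (9.39%) and 2532 of 22123 AVJ16 peaks (11.4%). The number of peaks chose the members, so the sites were chosen by measured values, and their counts, lengths and enrichment in the list that chose them are given as a description, without a test.

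The peaks came from eCLIP, in which UV light links a protein to the RNA it touches, the protein is precipitated with its RNA, and the RNA is sequenced beside a size-matched input library. H1299 cells, a human non-small cell lung carcinoma line of wild type genotype, were kept for 24 h in 0.01% DMSO or in 1.5 µM AVJ16, a small molecule directed at IGF2BP1, and crosslinked at 254 nm with 400 mJ/cm2. Each treatment had 2 precipitated and 2 input libraries, 8 in all, and all cells of this 1 line came from the same thaw, prepared in 2 batches that the labels do not tie to single samples. The processed data are 1 list per treatment in which both replicates stand together, so no value per replicate, no replicate error and no library depth could be given. Intervals in brackets after a share are 95% Wilson intervals over sites, which cover counting error only, and sites are not replicates of a treatment.

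IGF2BP1 is an oncofetal RNA-binding protein with several RNA-binding domains. It is known for binding many mRNAs, mostly in the 3'UTR, and for protecting them from decay. Short CA-rich and CAU-containing stretches, and GGAC around methylated adenosines, are among the sequences named for this protein family.

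The most subdivided site lay in LINC00632, a long noncoding RNA gene on chromosome X. Its sequence is shown first because the site lay in a repeat. Whether the peak edges followed the copies of the repeat was not tested. At chrX:140783951-140784277 (GRCh38, plus strand, noncoding exon) 15 DMSO peaks lay side by side in 327 nt. The RNA there is made of near copies of 1 unit, of which 5 copies are given with the shared 6 letters in capitals.
LINC00632, copy 2, chrX:140783970-140783989: ggUCUUCCagacuauccaug
LINC00632, copy 3, chrX:140783988-140784007: ugUCUUCCagaaaauccuug
LINC00632, copy 5, chrX:140784042-140784061: ggUCUUCCaggaaauccgug
LINC00632, copy 6, chrX:140784060-140784079: ugUCUUCCagcaaguccacg
LINC00632, copy 7, chrX:140784078-140784097: cgUCUUCCaacaaagccaug
These 6 letters are the reverse complement of GGAAGA, bases 2 to 7 of the microRNA hsa-miR-7-5p (RefSeq, GRCh38.p14), given here with its seed in capitals.
hsa-miR-7-5p: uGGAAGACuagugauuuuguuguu
The string UCUUCC was chosen after the peak sequences were seen, and a match is a description of the letters, not a shown binding site.

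LINC00632 had more broad sites than any other gene in either list, 6 with DMSO and 6 with AVJ16, all within a stretch of 1438 nt (chrX:140783209-140784646). UCUUCC occurred 73 times in this stretch on the RNA strand, counted with overlaps allowed. Of the 72 steps between neighbouring copies, 63 were 17 to 19 nt (87.5%), with a median of 18 nt, and 66 copies had a G directly before the string. In the 6 DMSO broad sites there were 57 copies in 1135 nt, or 50.2 per kb, against 0.918 per kb in the other 428 broad sites and 0.677 in single-peak sites. With AVJ16 the densities were 48.8, 0.709 and 0.681 per kb. Outside LINC00632 the median broad site held its most frequent 6-letter string 2 times. The highest such count there was 14 with DMSO, overlapping runs of A in CAP1, and 44 with AVJ16, a CA repeat in FGFRL1.

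The peaks of LINC00632 were short. Their median length was 18 nt with DMSO (57 peaks, 7 to 47 nt) and 20 nt with AVJ16 (44 peaks, 8 to 60 nt), against 47 and 42 nt in the other broad sites. In the site of 15 peaks the log2 fold enrichment, the precipitated reads over the input, was 5.99 in the first peak at the 5' end, a maximum of 6.09 in the fourth, 5.17 in the eighth and 4.89 in the last. The site was thus enriched over its whole length, with several small maxima and no single summit. The −log10 p, which stops at 400 in these files, was at that limit in 56 of the 57 DMSO peaks and in 38 of the 44 AVJ16 peaks.

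With AVJ16 the same stretch was divided elsewhere: the 15-peak site was covered to 92.7% by 15 peaks that belonged to 3 sites, the largest of 9 peaks. Mean log2 fold enrichment over the nucleotides covered in both lists was lower with AVJ16 at 5 of the 6 DMSO broad sites, by -0.0408 to -0.591, and 0.0391 higher at the site nearest the 5' end. The lowest difference was at chrX:140783806-140783948, where the mean was 5.75 with DMSO and 5.16 with AVJ16. Reads in near-identical copies can be placed at more than 1 copy, and the study's processing removed reads that matched repetitive elements, so the values along this stretch are less certain than those of unique sequence.

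**Figure D1:**
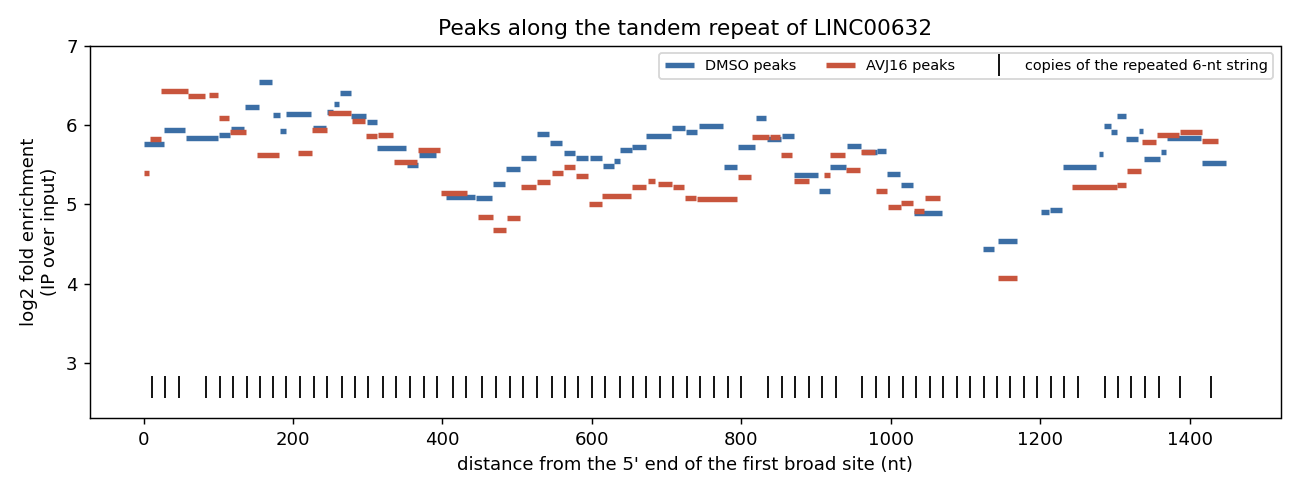
Log2 fold enrichment of each peak (horizontal lines, from peak start to peak end) along the stretch of LINC00632 that holds its broad sites, against distance in nt from the 5' end of the first broad site, for both lists. The 73 tick marks are the copies of the repeated 6-nt string, most of them 18 nt apart, and the AVJ16 lines lie below the DMSO lines over much of the middle.

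Among broad sites in mRNA, the highest peak of each marked where the enrichment was largest. The stretches below are that peak, or its middle 30 nt where it was longer, for sites named for their number of peaks (IGF1R, PSAT1), for the largest enrichment (ADIPOR1, CAPZA1) and for the difference between lists (MDM2, FHL1), with CAUA, CAUC and CAUU in capitals.
IGF1R, DMSO, chr15:98958566-98958595, plus strand: uuucucuguuccuaggacuucuucaugggu
PSAT1, DMSO, chr9:78329283-78329307, plus strand: gacuugaacuggaagCAUUuuaaga
ADIPOR1, DMSO, chr1:202941351-202941361, minus strand: cuuagcCAUCc
ADIPOR1, AVJ16, chr1:202941369-202941377, minus strand: auggggcau
CAPZA1, AVJ16, chr1:112670644-112670670, plus strand: uCAUUuauugCAUCuCAUAacuaauuu
MDM2, DMSO, chr12:68841941-68841970, plus strand: cuuugggaccCAUCuacccugaccaCAUCa
FHL1, DMSO, chrX:136211132-136211161, plus strand: ccgcuuaccugaaaugcaggaucaccuacu
CAPZA1 held 3 of these strings in 27 nt and MDM2 2 in 30 nt, while the IGF1R and FHL1 stretches held none.

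The median broad site was longer than the median single-peak site, while the median peak inside it was shorter. The median length was 239 nt with DMSO (45 to 590 nt) and 221 nt with AVJ16 (34 to 677 nt), against 72 and 68 nt for single-peak sites. The peaks inside broad sites had medians of 46 and 41 nt. Length and number of peaks were not the same property: 21 DMSO and 24 AVJ16 broad sites were shorter than 100 nt, and joined sites of at least 150 nt numbered 2400 with DMSO and 2037 with AVJ16. The AVJ16 list therefore had more sites of many peaks but fewer long sites. Most broad sites had exactly 4 peaks, 260 with DMSO and 273 with AVJ16, and 643 and 728 sites of 3 peaks lay just outside the rule. Sites of 3 and of 4 peaks had median lengths of 185 and 223 nt with DMSO and 164 and 195 nt with AVJ16. Their median highest log2 fold enrichments were 4.33 and 4.57 with DMSO and 4.19 and 4.43 with AVJ16, so the limit of 4 peaks cut a continuous range.

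**Figure D2:**
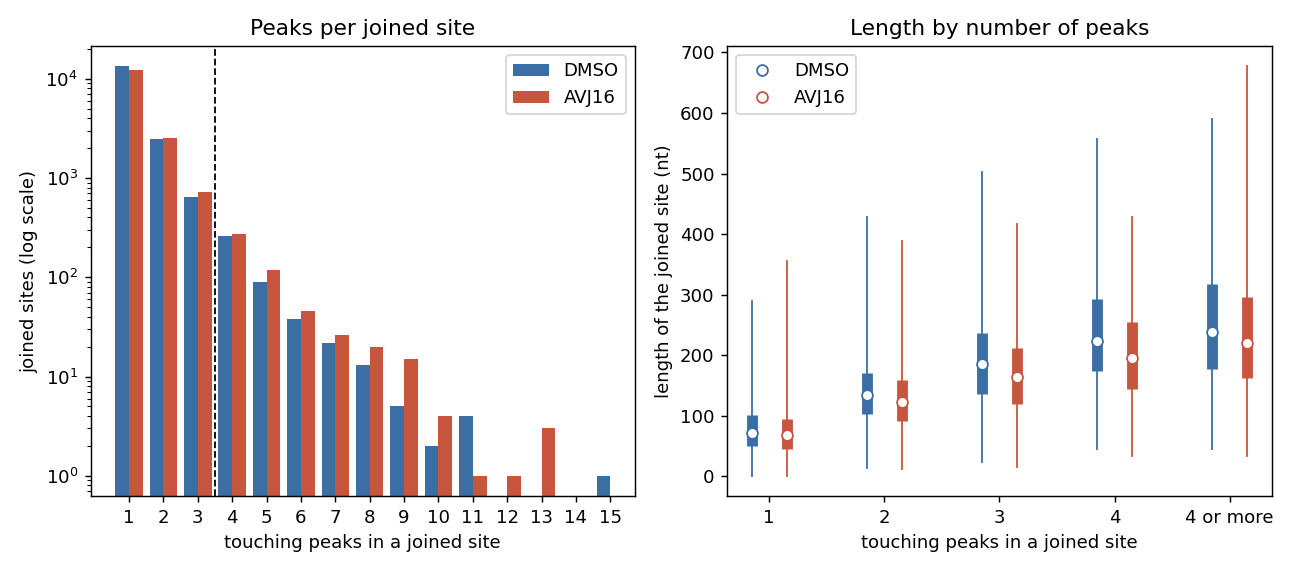
Left, number of joined sites (log scale) by the number of touching peaks in the site, with the limit for a broad site as a dashed line. Right, length of joined sites in nt by number of peaks, with the median (circle), the quartiles (thick line) and the range (thin line): the medians go from 72 nt (DMSO) and 68 nt (AVJ16) at 1 peak to 239 and 221 nt at 4 or more.

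The longest DMSO site covered 590 nt of the 3'UTR of CSNK2A1, a catalytic subunit of casein kinase 2, in 9 peaks (chr20:482895-483484). The highest of its peaks, at 5.22, was the fourth from the 5' end, and the lowest, at 3.02, was the last. The longest AVJ16 site covered 677 nt of the 3'UTR of FGFRL1, a receptor of the fibroblast growth factor receptor family, in 10 peaks between 3.22 and 4.33 (chr4:1025622-1026298). The FGFRL1 site ran through a CA repeat, with 37 of the 105 CACACA matches of all AVJ16 broad 3'UTR sites. In the DMSO list 5 peaks in 4 separate sites covered 62.0% of it.

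IGF1R, the receptor for insulin-like growth factors, had a site of nearly the same extent in both lists, 11 peaks over 536 nt with DMSO and 10 peaks over 540 nt with AVJ16. Its midpoint with DMSO lay at 19.4% of a 3'UTR of 7088 nt. In both lists the first peak at the 5' end was the highest, at 5.93 with DMSO and 5.88 with AVJ16, and the last stood at 4.00 and 3.97. With DMSO the lowest peak, at 3.37, was the eighth of 11. The means over common nucleotides were 4.58 and 4.70. PSAT1, an enzyme of serine synthesis, had 11 DMSO peaks over 369 nt and 13 AVJ16 peaks over 434 nt. Its highest peak was 5.04 with DMSO and 4.35 with AVJ16, although the mean over common nucleotides differed by only -0.0823.

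The highest peak of any broad site lay in the 3'UTR of ADIPOR1, a receptor for adiponectin. Its 5 DMSO peaks, from 5' to 3', had log2 fold enrichments of 6.36, 7.33, 7.42, 7.66 and 6.80 over 136 nt. Its 5 AVJ16 peaks had 7.50, 7.77, 7.69, 6.75 and 6.26 over 133 nt. The sites matched in place and in mean (7.01 with DMSO, 6.98 with AVJ16), while the peaks within them were divided differently.

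More generally, enrichment varied within a broad site by a median of 0.956 log2 units with DMSO and 0.867 with AVJ16 between the highest and the lowest peak. The highest peak lay inside the site, not at an end, in 279 of 434 DMSO sites (64.3%, 59.7 to 68.7%) and 316 of 506 AVJ16 sites (62.5%, 58.2 to 66.6%). Inner peaks were also the more numerous, 1227 of 2095 DMSO and 1520 of 2532 AVJ16 peaks of broad sites. The highest peak was at the 5' end in 66 and 72 sites and at the 3' end in 89 and 118. Enrichment had 1 maximum along the site in 264 DMSO sites (60.8%) and 271 AVJ16 sites (53.6%), 2 in 149 and 210, and 3 or more in 21 and 25. Inner peaks were shorter than end peaks, with medians of 40 nt against 50 nt (5' end) and 58 nt (3' end) with DMSO, and 37.5 against 44 and 52 nt with AVJ16.

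Nearly all broad sites lay in exons of mRNAs. Assigned to the region that held most of its nucleotides, a broad site lay in a 3'UTR in 357 DMSO cases (82.3%, 78.4 to 85.6%) and 425 AVJ16 cases (84.0%, 80.5 to 86.9%). For single-peak sites the shares were 72.7% (72.0 to 73.5%) and 74.1% (73.3 to 74.9%), and for sites of 3 peaks 84.8% (81.8 to 87.3%) and 79.5% (76.5 to 82.3%). When any nucleotide of coding sequence (CDS) decided, the 3'UTR shares of broad sites were 75.1% and 77.7%, against 71.7% and 73.0% of single-peak sites. CDS held most of 67 broad sites in each list, and 8 DMSO and 14 AVJ16 sites lay in noncoding exons. Distal introns, here intron sequence farther than 500 nt from any exon, contained 2 DMSO broad sites (0.461%, 0.126 to 1.66%) and no AVJ16 broad site of 506 (0 to 0.753%). They contained 1110 single-peak DMSO sites (8.35%, 7.89 to 8.83%) and 390 single-peak AVJ16 sites (3.17%, 2.87 to 3.49%). Sites of 2 or 3 peaks were also rare there, at 1.37% with DMSO and 0.703% with AVJ16.

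**Figure D3:**
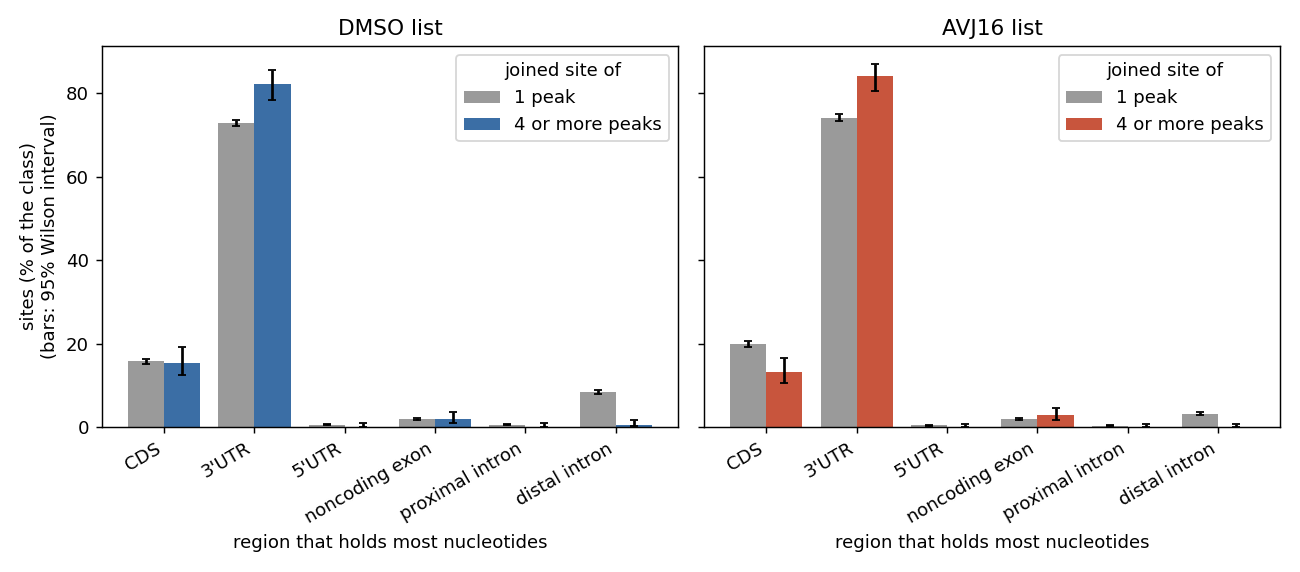
Share of joined sites, in percent of their class, by the region that held most of their nucleotides, for sites of 1 peak (grey) and of 4 or more peaks (coloured), with 95% Wilson intervals. In both lists the broad sites have a larger share in the 3'UTR than single peaks and almost none in distal introns.

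Of the 2 intronic sites, 1 lay in GXYLT2, a xylosyltransferase gene (360 nt, 4 peaks, highest 4.61). The other lay in the noncoding gene ENSG00000280441 on chromosome 21 (89 nt, 5 peaks, highest 4.72). That gene lies among copies of ribosomal RNA genes, so its reads could come from more than 1 place.

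Within 3'UTRs broad sites sat nearer the stop codon than single peaks did. Their midpoints lay at a median of 35.0% of the 3'UTR with DMSO (354 sites) and 34.8% with AVJ16 (421 sites), against 37.7% and 38.4% for sites of 3 peaks and 44.2% and 44.1% for single-peak sites. The last 25% of the 3'UTR held 12.1% and 13.1% of broad sites and 22.0% and 20.5% of single-peak sites. The 3'UTRs themselves were somewhat shorter, with medians of 2333 and 2374 nt against 2940 and 3009 nt. A stop codon fell inside 29 DMSO broad sites (6.68%, 4.69 to 9.43%) and 28 AVJ16 broad sites (5.53%, 3.86 to 7.88%), against 3.58% and 3.71% of sites of 3 peaks and 1.43% and 1.36% of single-peak sites, which are shorter and so span fewer positions. XBP1, a transcription factor of the unfolded protein response, had such a site with DMSO, 391 nt with 202 nt in the CDS and 189 nt in the 3'UTR, and its 6 peaks were highest in the third (4.93). FBXO7, a subunit of a ubiquitin ligase, had another of 444 nt.

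Broad sites in the CDS were shorter than those in 3'UTRs, with medians of 202 against 252 nt for DMSO and 164 against 230 nt for AVJ16. The longest was an AVJ16 site of 575 nt in ANKRD17, an ankyrin repeat protein, with 7 peaks and a highest enrichment of 3.75. KMT2A, a histone methyltransferase, had a CDS site of 381 nt with 9 AVJ16 peaks of 3.72 to 4.56. The median broad CDS site covered 48.4% of its exon with DMSO and 73.4% with AVJ16. For CDS sites of 3 peaks the values were 39.8% and 46.3%, and for single-peak sites 18.3% and 18.0%. Sites of fewer peaks are shorter and so cover less of an exon.

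The letters under broad 3'UTR sites were like those under single peaks and unlike the rest of the same 3'UTRs. CAUA, CAUC and CAUU together, counted on the RNA strand with overlaps allowed, occurred 16.97 times per kb in DMSO broad sites, 16.9 in single-peak 3'UTR sites and 12.3 in the rest of the same 3'UTRs outside all peaks of both lists. With AVJ16 the densities were 15.7, 16.1 and 12.6. A window of 100 nt centred on the site held at least 1 of them in 80.2% of DMSO broad sites (75.8 to 84.0%), in 79.8% of single-peak sites and in 68.0% of windows from the rest. The AVJ16 shares were 76.5% (72.2 to 80.3%), 78.8% and 69.0%. Base composition followed the same pattern, with 23.9% C in DMSO broad sites, 23.1% in single-peak sites and 19.1% in the rest.

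Runs of U were rarer in broad sites than in the rest of the same 3'UTRs. Against single-peak sites the direction depended on the measure. UUUUU occurred 4.43 times per kb in DMSO broad 3'UTR sites, 3.47 times in single-peak sites and 10.0 times in the rest of the same 3'UTRs. The AVJ16 densities were 3.23, 2.56 and 10.1. By windows of 100 nt the order of broad and single-peak sites was reversed. UUUUU was in 24.0% of DMSO broad-site windows (19.9 to 28.7%), 27.4% of single-peak windows and 33.6% of the rest. With AVJ16 the shares were 22.6% (18.8 to 26.8%), 26.4% and 33.6%. Both intervals held the single-peak share. AUUUA, part of AU-rich decay elements, had densities of 1.64, 1.82 and 2.58 with DMSO. GGAC occurred 2.50, 2.42 and 2.02 times per kb with DMSO and 2.74, 2.59 and 2.10 times with AVJ16. GGCA and GGCG together had 3.20, 3.55 and 4.33 with DMSO. CACACA had 0.704, 0.640 and 0.437 with DMSO and 1.04, 0.683 and 0.401 with AVJ16, and the AVJ16 value was 0.680 without the FGFRL1 site. The Pumilio element UGUANAUA was present in 4 of 354 DMSO broad-site windows of 100 nt (1.13%, 0.440 to 2.87%). With AVJ16 it was in 5 of 421 (1.19%, 0.508 to 2.75%). These intervals hold the shares of single-peak sites (2.19% and 2.05%) and of windows from the rest (2.25% and 2.19%). The let-7 seed match CUACCUC was present in 3 windows in each list (0.847% and 0.713%), near the 0.744% and 0.599% of single-peak sites and the 0.589% and 0.653% of the rest.

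A broad site was almost always found again under the other treatment. At least 1 nt of it was covered by a peak of the other list in 430 of 434 DMSO sites (99.1%, 97.7 to 99.6%) and in 502 of 506 AVJ16 sites (99.2%, 98.0 to 99.7%). Over all joined sites the shares were 60.9% with DMSO and 65.7% with AVJ16. A longer site offers more nucleotides to overlap, and broad sites were also more enriched, with a median highest log2 fold enrichment of 4.67 with DMSO and 4.49 with AVJ16 against 3.51 and 3.47 for single-peak sites. Sites were therefore also compared within ranges of the highest enrichment. These ranges do not match length, so broad sites still had more nucleotides to overlap. Nor do they match the −log10 p. Over all ranges its median highest value was 54.9 with DMSO and 55.8 with AVJ16 in broad sites, against 9.29 and 9.35 in single-peak sites. Between 4 and 4.5, 122 of 124 DMSO broad sites were present (98.4%, 94.3 to 99.6%), against 71.2% (69.1 to 73.2%) of single-peak sites and 93.4% (91.5 to 94.9%) of sites of 2 or 3 peaks. At 5 or more, all 138 DMSO and all 138 AVJ16 broad sites were present (97.3 to 100%), against 91.4% and 84.2% of single-peak sites, but also 98.8% and 98.7% of sites of 2 or 3 peaks, so presence at high enrichment was shared with these. Only 8 DMSO and 12 AVJ16 broad sites had a highest enrichment under 3.5. Of these, 8 and 10 were present.

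**Figure D4:**
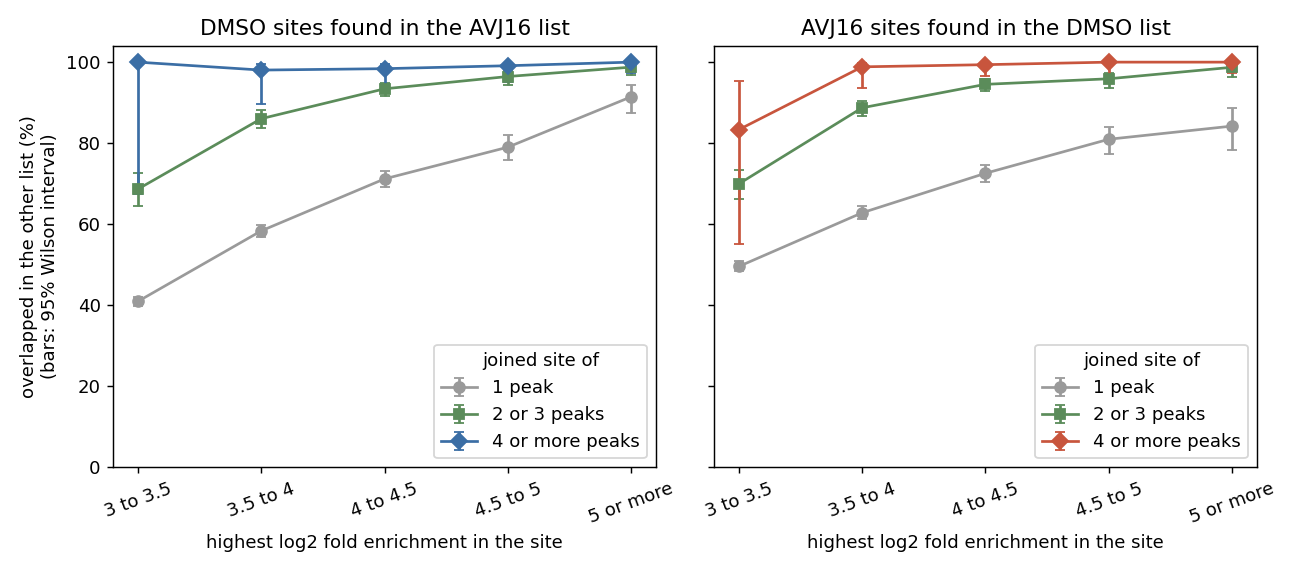
Percent of joined sites of 1 list that a peak of the other list overlapped by at least 1 nt, by the highest log2 fold enrichment in the site, for sites of 1 peak, of 2 or 3 peaks, and of 4 or more peaks, with 95% Wilson intervals. Above 3.5 the broad sites stay between 98.0% and 100%, above the single-peak sites in every range.

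Most nucleotides of broad sites were covered in the other list, and the division into peaks was shared in part. Peaks of the other list covered 85.6% of the nucleotides of DMSO broad sites and 86.5% of those of AVJ16 broad sites, and the median site was covered to 94.2% and 93.9%. The other list had a broad site at 211 DMSO sites (48.6%, 43.9 to 53.3%) and at 224 AVJ16 sites (44.3%, 40.0 to 48.6%). At 238 DMSO and 249 AVJ16 sites the overlapping peaks belonged to at least 2 separate sites of the other list. Of 1661 boundaries between neighbouring peaks inside DMSO broad sites, 199 (11.98%) fell on a peak end of the AVJ16 list at the same nucleotide and 1036 (62.4%) within 5 nt. For AVJ16 they were 201 (9.92%) and 1114 (55.0%) of 2026. The highest peaks of the 2 lists overlapped at 262 of 430 DMSO sites (60.9%) and 310 of 502 AVJ16 sites (61.8%).

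Put together by overlap, the broad sites of both lists made 704 loci. Of these, 199 (28.3%) were broad in both lists, 219 (31.1%) were broad with DMSO and had at most 3 touching peaks with AVJ16, and 278 (39.5%) were broad with AVJ16 and had at most 3 with DMSO. These classes rest on the number of touching peaks and not on width. Peaks of the other list covered at least 90% of the site at 91 of these 219 (41.6%) and at 125 of these 278 (45.0%). At the others less of the site was covered. The remaining 8 had no peak in the other list, 4 on each side. AMOT, a scaffold protein of the Hippo pathway, had 13 AVJ16 peaks in 383 nt (chrX:112776138-112776520) where the DMSO list had 9 peaks in 5 sites of at most 2 peaks. The means were close there, 4.46 with AVJ16 and 4.33 with DMSO. CRTC3, a coactivator of CREB, was the reverse, with 4 touching DMSO peaks over 348 nt and 3 separate AVJ16 peaks. BSG, a transmembrane glycoprotein also called basigin, was broad in both lists, with 13 AVJ16 peaks in 263 nt and 7 DMSO peaks over the same stretch, of which 4 touched.

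The 4 DMSO broad sites with no AVJ16 peak lay in ENSG00000280441, BCLAF1, TBC1D5 and SRSF10. The 3 in mRNAs were 3'UTR sites of 4 peaks, with highest enrichments of 4.47 in BCLAF1, a nuclear protein of RNA processing, 4.43 in TBC1D5, a Rab GTPase-activating protein, and 3.74 in SRSF10, a splicing factor. The 4 AVJ16 broad sites with no DMSO peak lay in NT5E, TOP2A, CALR and FBRS, with highest enrichments of 4.32, 3.57, 3.40 and 3.37. NT5E encodes the ectonucleotidase CD73, TOP2A a DNA topoisomerase and CALR the chaperone calreticulin. NT5E had 2 other AVJ16 broad sites, both overlapped in the DMSO list. A peak that is not in a list may lie just under its thresholds, a log2 fold enrichment and a −log10 p of 3, so no peak does not mean no binding.

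At most broad sites the mean enrichment over nucleotides covered in both lists differed by less than 0.5 log2 units. This mean was compared as AVJ16 minus DMSO, and 0.5 was taken as the limit of a difference. Nucleotides with no peak in the other list were left out. Their enrichment there may lie under the peak thresholds, so a difference over the whole site can be larger than the value given. At 430 DMSO broad sites the median was -0.151 (quartiles -0.334 and 0.0605). There 56 (13.0%, 10.2 to 16.5%) were lower with AVJ16 and 9 (2.09%, 1.10 to 3.93%) were higher, beside 18.7% lower and 11.9% higher over all DMSO joined sites. At 502 AVJ16 broad sites the median was -0.0146 (-0.259 and 0.198). There 55 (11.0%, 8.51 to 14.0%) were lower and 30 (5.98%, 4.22 to 8.40%) higher, beside 19.3% and 11.6% over all AVJ16 joined sites. All joined sites are mostly single peaks, whereas a broad site gives a mean over several peaks, so these shares are not like for like. By the highest peak of each list in place of the mean, more sites differed: 26.7% of DMSO broad sites were lower and 5.58% higher with AVJ16, and 14.9% and 13.1% of AVJ16 broad sites. The list that chose a site is one side of its difference, so the DMSO-chosen and AVJ16-chosen medians differ in part through the choice. Sites broad in both lists had medians of -0.0823 (211 DMSO sites) and -0.0390 (224 AVJ16 sites), with 19 and 25 lower and 5 and 9 higher. Each list was normalised to its own inputs, and without replicate values no difference could be set against replicate error.

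**Figure D5:**
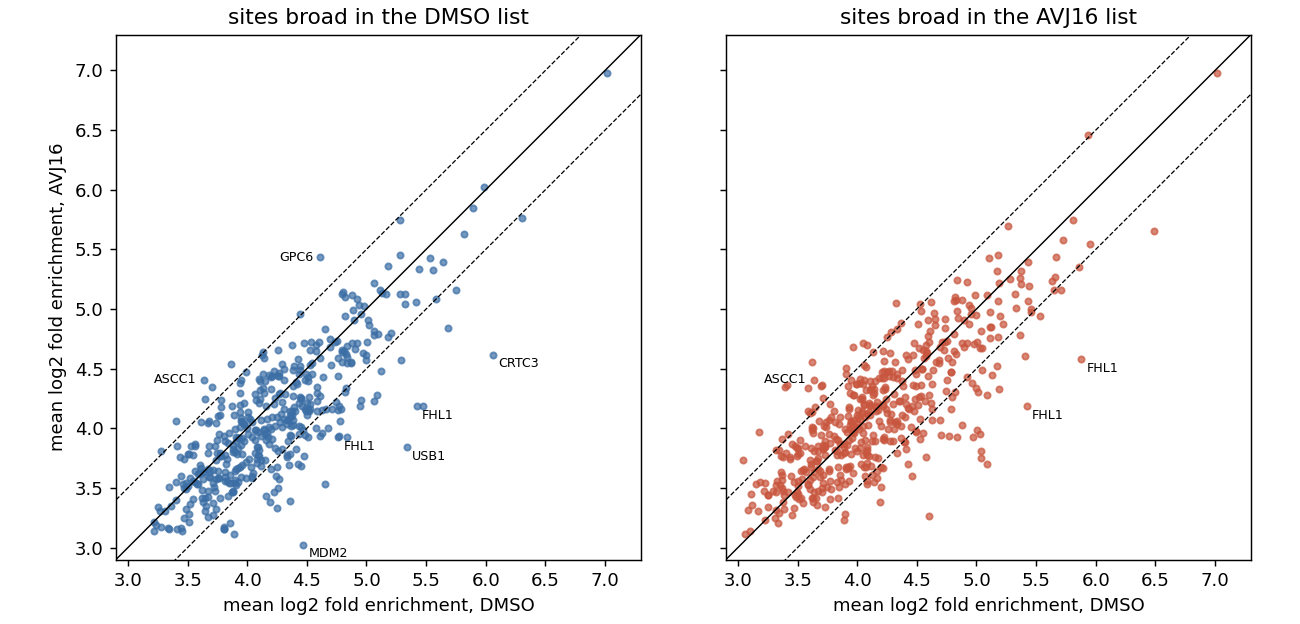
Mean log2 fold enrichment over nucleotides covered in both lists, AVJ16 against DMSO, for each broad site of the DMSO list (left, 430 sites) and of the AVJ16 list (right, 502 sites). The solid line marks equal values and the dashed lines a difference of 0.5, and names mark sites of FHL1, CRTC3, ASCC1, GPC6, USB1 and MDM2 with a difference beyond 0.7.

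FHL1, a LIM domain protein, was lower with AVJ16 at all of its broad sites. Its 3 DMSO broad sites, all in the 3'UTR, had means of 5.42, 4.76 and 4.48 with DMSO, against 4.18, 3.92 and 3.95 with AVJ16. The differences were -1.24, -0.837 and -0.536. At its 2 AVJ16 broad sites the differences were -1.30 and -1.24. The peaks of the site farthest from the stop codon (chrX:136211088-136211281) were at 5.09, 6.04, 5.44 and 4.65 with DMSO. The touching AVJ16 peaks were at 3.83, 4.39, 4.18 and 4.00. The site was named for its large difference, and its peaks are neighbouring parts of 1 list per treatment, not replicates.

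The other large differences towards lower values were at USB1, MDM2, CRTC3 and TSPYL1 among DMSO broad sites, from -1.50 to -1.29. USB1, a nuclease that trims U6 RNA, had 4 touching DMSO peaks of 3.07, 3.85, 4.81 and 5.43, and 1 AVJ16 peak covered 38.0% of the site with a mean of 3.84. MDM2, the ubiquitin ligase of p53, had 1 AVJ16 peak over 27.8% of its 270 nt, with a mean of 3.02 against 4.47 over the same nucleotides. CRTC3 had means of 6.06 with DMSO and 4.62 with AVJ16, and its highest peak of 6.88 was at the 3' end. TSPYL1 had only 5.26% of its site in common. Among AVJ16 broad sites ATP6V1A, a subunit of the vacuolar proton pump, and MCCC2, a subunit of a carboxylase of leucine breakdown, had differences of -1.39 and -1.34.

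The largest differences towards higher values were smaller. They were 0.951 in LDLRAD3, a receptor of the LDL receptor family, 0.949 in TMBIM6, an inhibitor of cell death in the endoplasmic reticulum, and 0.937 in IDS, a lysosomal sulfatase, all among AVJ16 broad sites and all with the DMSO list holding at most single peaks there. The DMSO peaks covered 26.9% of the LDLRAD3 site, 31.8% of the TMBIM6 site and 76.9% of the IDS site. TMBIM6 had 4 AVJ16 broad sites in all. ASCC1, a subunit of a transcription coactivator complex, was broad in both lists with 5 peaks each. Its means were 3.63 with DMSO and 4.41 with AVJ16, a difference of 0.774. GPC6, a cell surface glypican, had 4.61 and 5.43 over the 62.9% of its DMSO site that was common. SLC26A2, a sulfate transporter, shows that the summary mattered: its highest AVJ16 peak was 6.95, 1.73 above the highest DMSO peak, but the means over common nucleotides differed by -0.167.

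Broad sites were spread over many genes. With 1 gene assigned per site, they lay in 334 genes with DMSO and 374 with AVJ16, 525 genes in all and 183 in both lists. Of these genes, 66 with DMSO (19.8%) and 85 with AVJ16 (22.7%) had more than 1 broad site. After LINC00632, the genes with most DMSO broad sites were SLC7A1, a cationic amino acid transporter, and WAC, an adaptor protein with a WW domain, with 5 each. CAPRIN1, PRRC2C, APP and PABPC1 followed with 4 each. With AVJ16 they were SLC38A1, a glutamine transporter, NUCKS1, a nuclear DNA-binding protein, APP, the amyloid precursor, and CANX, the chaperone calnexin, with 5 each. Of the 5 broad sites of WAC with DMSO 4 were in the CDS, as were all 4 of PRRC2C, whereas the 5 of SLC7A1 were spread over a 3'UTR, with midpoints from 357 nt after the stop codon to 106 nt before its end.

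The 5 SLC7A1 sites also differed among themselves. The one at chr13:29510647-29510815 had its highest peak at the 5' end (6.70) and lower values towards the 3' end, down to 3.65, and its mean differed by -0.286 with AVJ16. The site at chr13:29511179-29511336 had a mean of 3.86 with DMSO and 4.53 with AVJ16. The other 3 differed by 0.125 to 0.383.

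The sites of the pseudogenes PABPC1P4 and RPL39P3 are uncertain, because reads of the parent genes share their sequence. PABPC1P4 had a site of 53 nt with an AVJ16 peak of 6.70, and RPL39P3 had one of 212 nt with a peak of 6.13. Beside LINC00632, the noncoding genes named by length were SNHG16, with 7 AVJ16 peaks in 330 nt, and FGD5-AS1, with 5 AVJ16 peaks in 368 nt.

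Gene lists were counted as genes with a broad site among list genes with any peak, beside 6.55% of 5102 genes with DMSO and 8.16% of 4585 with AVJ16. The lists were chosen with earlier results of these data known, so a share above these values is a description and no test of enrichment. Of the solute carriers, which move nutrients across membranes, 6 of 18 had a broad site with DMSO (SLC38A1, SLC7A1, SLC7A5, SLC7A11, SLC2A1 and SLC12A2) and 4 of 17 with AVJ16 (SLC38A1, SLC7A1, SLC16A1 and SLC2A1). Of RNA-binding proteins and mRNA decay factors, 4 of 20 had one with DMSO (LIN28B, QKI, PABPC1, CAPRIN1) and 4 of 19 with AVJ16 (PABPC1, G3BP2, CAPRIN1, ZFP36L2). Chromatin regulators had 4 of 23 and 5 of 21, both with KMT2A, CBX5, SMARCC1 and NUCKS1. Cell-cycle regulators had 2 of 18 and 3 of 18, lipid and cholesterol synthesis 2 of 16 and 1 of 15, and the WNT pathway 1 of 21 (DVL3) and 1 of 19 (FZD1). None of the 5 microRNA pathway genes with a peak had a broad site in either list.

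Of reported IGF2BP1 targets, 2 of 11 had a broad site with DMSO (HMGA2, LIN28B) and 3 of 11 with AVJ16 (HMGA2, CD44, PEG10). HMGA2, a chromatin protein with a long 3'UTR, had 2 DMSO and 4 AVJ16 broad sites. Its strongest DMSO site held peaks of 6.16, 6.48, 6.43 and 6.37 over 102 nt, and the means over common nucleotides were 6.31 with DMSO and 5.76 with AVJ16. At its other DMSO site the means were 4.22 and 4.48, so the 2 sites of the same 3'UTR differed in direction. LIN28B, an inhibitor of let-7 processing, had 4 DMSO peaks between 3.10 and 3.54, and 1 AVJ16 peak covered 27.0% of the site. CD44, a cell surface receptor, was the reverse, with 4 AVJ16 peaks of 3.22 to 4.20 and 1 DMSO peak over 20.8% of the site.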

How the data were processed

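The deposited lists, 1 per treatment, hold for each peak the −log10 p (limit 400) and the log2 fold enrichment of precipitated over paired input reads as the authors computed them. The authors trimmed reads, discarded reads matching repeats, aligned to hg38 with STAR, removed PCR duplicates, called peaks with CLIPper, normalised to input and combined both replicates. Depth is unknown here. Peaks were joined in Python 3.11.15, and regions came from GENCODE release 44 with bedtools 2.31.1, where CDS took precedence over UTRs, exons of noncoding genes came next, and introns were split at 500 nt from an exon. 3'UTR positions used the canonical transcript. Motifs were counted on GRCh38 sequence (pysam 0.24.0), and intervals came from scipy 1.17.1. Scripts were tested on simulated peaks. Members, gene lists and motifs were chosen with earlier results of these data known. Named genes were the first 5 broad sites per list by number of peaks, length, highest peak, absence from the other list, difference each way, and length in CDS or noncoding regions, the 5 genes with most broad sites, and list genes. Alternatives were other joining gaps, limits, filters, region rules, overlaps and summaries.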

Additional observations from a re-analysis of the deposited data

How the results depend on the processing

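No paired analysis was possible because each list holds both replicates together, and for the same reason no replicate could be left out. Joining only overlapping peaks gave no sites, since peaks of a list touched (5441 DMSO and 6025 AVJ16 pairs) but never overlapped. Of 70 alternative values, 32 stayed within 1.5 times the count or within the 95% interval of the share. The cause of the moves was not tested beyond their construction. The count moved, for DMSO and AVJ16, to 1077 and 1234 sites at 3 peaks, 174 and 233 at 5 peaks, 2400 and 2037 at 150 nt, and 133 and 163 when peaks under a log2 fold enrichment of 4 were left out. Only at 150 nt did DMSO have more. The 3'UTR share was 84.8% and 85.4% when 3'UTR ranked before CDS and 82.3% and 84.0% by most nucleotides, and the CDS share 12.9% and 11.9%, then 15.4% and 13.2%. The share present in the other list was 94.2% and 95.5% at 50% coverage, 60.8% and 61.1% at 90% coverage, 48.6% and 44.3% when the other site had to be broad, 97.3% and 96.9% at 3 peaks, 100% for AVJ16 at 5 peaks, and 97.0% for DMSO at an enrichment of at least 4. By the highest peak in each list, the share lower with AVJ16 was 26.7% of DMSO and 14.9% of AVJ16 broad sites, and the share higher 5.58% and 13.1%. With a limit of 1 the lower shares were 1.40% and 1.79% and the higher shares 0% and 0%. Centred on the median of all joined sites, 7.57% of AVJ16 broad sites were lower, and at 3 peaks 4.68% of DMSO sites were higher. The ratio of CAUA, CAUC and CAUU density in broad 3'UTR sites, 1.38 with DMSO and 1.24 with AVJ16 over the rest of the same 3'UTRs, was 1.002 and 0.975 over single-peak sites. The depth of the libraries is unknown, so sites just under the peak thresholds cannot be told from sites without binding.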
